A study of Mus musculus with 18 samples.

Results

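The short-tail fraction of brain RNA was compared between transgenic and control mice. It is the RNA that left a poly(U) column at 25% formamide, and it was measured on 6 of the 18 arrays of the study, 1 per mouse. The groups were taken from the sample titles. The transgenic mice (3, TgCPEB4∆4) carried a transgene encoding CPEB4 without 1 of its microexons, and the control mice (3, labelled CTRL) served as their comparison. All were 6 weeks old, and cortex and striatum were dissected together from each. The sources used here give neither the promoter of the transgene nor the genetic background, and do not say in which cells it is active. From the same mice, 6 arrays measured total RNA and 6 measured the RNA released at 90% formamide, which is enriched for long tails. The 3 preparations of a mouse came from 1 dissection.

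CPEB proteins bind cytoplasmic polyadenylation elements in the 3' end of an mRNA and recruit either deadenylases, which shorten the poly(A) tail, or poly(A) polymerases, which lengthen it. A short tail generally goes with lower stability or lower translation of an mRNA, and in neurons tail length takes part in the local control of synaptic proteins. A poly(U) column holds long tails more tightly than short ones, so a low concentration of formamide releases RNA with short tails first. A gene can be higher in the short-tail fraction because more of its mRNA has short tails or because there is more of its mRNA in all. The same contrast in total RNA is therefore given beside the results.

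Values are log2 expression per probe set. A difference of 1 on this scale is a doubling, and differences are transgenic minus control. Each array received an equal mass of amplified cDNA, so a value is the level of a transcript relative to the rest of its array. The tissue label was checked against neuronal and striatal markers. The synaptic vesicle protein gene Snap25 read 12.43, 12.53 and 12.57 in transgenic mice, against 12.75, 12.77 and 12.66 in control mice. The striatal phosphoprotein gene Ppp1r1b read 10.59, 10.24 and 10.47 in transgenic mice, against 10.39, 10.34 and 10.52 in control mice. Both kinds of marker were thus far above the nonspecific control probes, the highest of which read between 5.43 and 6.03. Probes for 18S ribosomal RNA, which has no poly(A) tail, read 12.2 to 13.3 on the short-tail arrays of both genotypes. They read 12.33 to 13.33 on the long-tail arrays and 12.59 to 13.45 in total RNA, so they do not mark the short-tail fraction.

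Transgenic mouse 1 stood apart from the other 5 mice. Its short-tail array correlated with the others at 0.962 to 0.979 over all probe sets tested, whereas the control arrays reached 0.994 among themselves. On the first principal component, which held 56.9% of the variance, the transgenic mice scored -49.4, -6.74 and 7.25 and the control mice 15.7, 14.6 and 18.5. An exact two-sided permutation test on these scores gave p = 0.1, the smallest that 3 mice against 3 can give. On the second component, with 19.4% of the variance, transgenic mouse 3 scored -28.3 and the other 5 mice -2.73 to 15.6. In transgenic mouse 1, 110 of 11974 genes stood at least 1 log2 unit above the highest of the other 5 mice, and 16 stood as far below the lowest. No other mouse had such a gene in the short-tail fraction. The filter on dim probe sets used the mean of all 18 arrays, so a gene high only in 1 mouse could enter through it. Such counts therefore depend in part on that filter. For the lists named below with most genes under the unadjusted threshold, values are also given without transgenic mouse 1.

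No gene passed an adjusted p of 0.05 in the short-tail fraction. In limma with Benjamini-Hochberg adjustment 0 of 19143 probe sets that map to 1 gene passed (0%), and the lowest adjusted p was 0.061. Without adjustment, 2147 probe sets were higher (11.2%) and 974 lower (5.09%) at a p under 0.05. Taking 1 probe set per gene, the difference was positive for 6740 of 11974 genes and the median was 0.03. Of these genes 1350 were higher at an unadjusted p under 0.05 (11.3%) and 647 lower (5.40%). Without transgenic mouse 1 these counts were 1420 and 555. Over the 6 fits that each leave out 1 mouse they ran from 753 (without control mouse 2) to 1708 (without transgenic mouse 3) for higher genes and from 357 (without control mouse 3) to 974 (without transgenic mouse 3) for lower genes. Over both directions the 3121 probe sets under that p were 1870 without control mouse 2 and 1796 without control mouse 3. The 2 genotypes did not overlap for 1924 genes that were higher (16.1%) and 1102 that were lower (9.20%). The large differences ran in 1 direction. For 50 genes the mean was at least 1 log2 unit higher in transgenic mice, and for 0 genes was it as much lower. Without transgenic mouse 1 there were 11 such higher genes, without transgenic mouse 2 there were 80 and without transgenic mouse 3 there were 135, beside 0, 2 and 4 as much lower. Leaving out transgenic mouse 3 changed the outcome, because 275 probe sets then passed, 258 of them higher and 17 lower. With 1 probe set per gene, 185 genes passed in that fit. Leaving out transgenic mouse 1 instead gave 4 probe sets. With 1 probe set per gene, the genes passing there were Lor, Ddit4l and F2r. In the plot of all genes by difference and p the differences reach further to the right than to the left.

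**Figure D1:**
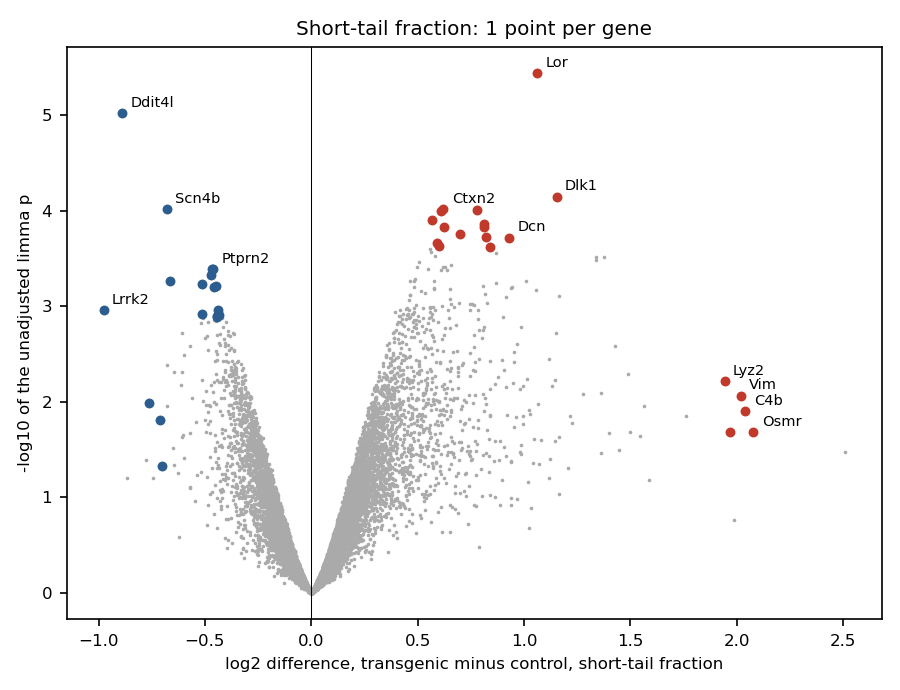
Each point is 1 of 11974 genes in the short-tail fraction. The x axis is the log2 difference, transgenic minus control (n = 3 each), and the y axis is -log10 of the unadjusted limma p. Red points are named genes that were higher in transgenic mice and blue points named genes that were lower. Lor is the uppermost point, Ddit4l the uppermost on the left, and no gene lies at or beyond -1 while 50 lie at or beyond 1.

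The 15 genes with the smallest p among those higher in transgenic mice had differences between 0.57 and 1.15. Genes named here and below were mostly chosen by their p or by a lack of overlap. The absence of overlap in them therefore follows largely from the choice and is given as a description. Over all genes 16.1% were higher and 9.20% lower without overlap. Lor, which encodes loricrin, a protein of the cornified envelope of skin, read 7.94, 7.68 and 7.73 in transgenic mice and 6.71, 6.66 and 6.79 in control mice. All 3 transgenic values lay above all control values. The difference was 1.06 ± 0.10 (SE, n = 3 each, limma adjusted p = 0.061). Its probe set name carries the suffix that the manufacturer gives to probes shared by several transcripts. Lor was the only gene of the 15 that passed when transgenic mouse 1 was left out (0.99 ± 0.10, limma adjusted p = 0.023).

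Dlk1 encodes a membrane protein related to Notch ligands. It read 7.89, 7.68 and 7.30 in transgenic mice, against 6.40, 6.32 and 6.68 in control mice, without overlap. Its difference of 1.15 ± 0.16 was the largest of the 15 (SE, n = 3 each, limma adjusted p = 0.15). Lfng, a glycosyltransferase that modifies Notch, and Bmp4, a secreted morphogen, were also among the 15. Lfng read 8.30, 7.84 and 8.10 in transgenic mice, against 7.30, 7.22 and 7.29 in control mice, and its second probe set differed by 0.59. Bmp4 read 7.74, 7.58 and 7.29 in transgenic mice, against 6.65, 6.73 and 6.79 in control mice. Neither gene overlapped between the groups, and the differences were 0.81 for each (limma adjusted p = 0.15).

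Some neuronal genes were also among the 15, with values that were close together within each genotype. Ctxn2, which encodes a small neuronal membrane protein of the cortexin family, read 9.35, 9.36 and 9.45 in transgenic mice and 8.86, 8.71 and 8.73 in control mice. Dpysl3, which encodes a cytosolic phosphoprotein of growing axons, read 8.52, 8.41 and 8.50 in transgenic mice and 7.89, 7.93 and 7.92 in control mice. In both genes the transgenic values lay close together and did not reach the control values (differences 0.62 and 0.57, limma adjusted p = 0.15 for each). A second Dpysl3 probe set differed by 0.43 and also did not overlap.

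Transporters and matrix genes made up much of the remainder. Slc31a1, the copper importer of the plasma membrane, read 7.53, 7.42 and 7.34 in transgenic mice, against 6.83, 6.80 and 6.83 in control mice. Slc39a8, an importer of zinc and manganese, read 8.99, 8.81 and 8.45 in transgenic mice, against 7.93, 7.97 and 7.82 in control mice. Transgenic mouse 1 was highest and transgenic mouse 3 lowest of the 3 in both, and none overlapped with control mice. Dcn, the matrix proteoglycan decorin, read 9.29, 8.97 and 8.71 in transgenic mice and 7.92, 8.17 and 8.10 in control mice. Mmp14, a membrane-bound matrix metalloproteinase, read 8.16, 7.94 and 7.68 in transgenic mice and 7.09, 7.01 and 7.22 in control mice. These matrix genes had the same order of the transgenic mice, with differences of 0.93 and 0.82 (limma adjusted p = 0.16 for each). The second Mmp14 probe set overlapped between the groups (difference 0.37).

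The others of the 15 were Ttc28 (0.78), the transcription factor gene Ebf4 (0.70), the uncharacterised 2310022B05Rik (0.62), the gene of the ciliary radial spoke protein Rsph9 (0.60) and the transporter gene Slc35f2 (0.59). None of them overlapped between the groups and none passed in limma (adjusted p from 0.15 to 0.16). For Slc35f2 the second probe set went the other way, at -0.33, so its direction depends on the probe set. For Ttc28 the second probe set differed by 0.55 and kept the direction.

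**Figure D2:**
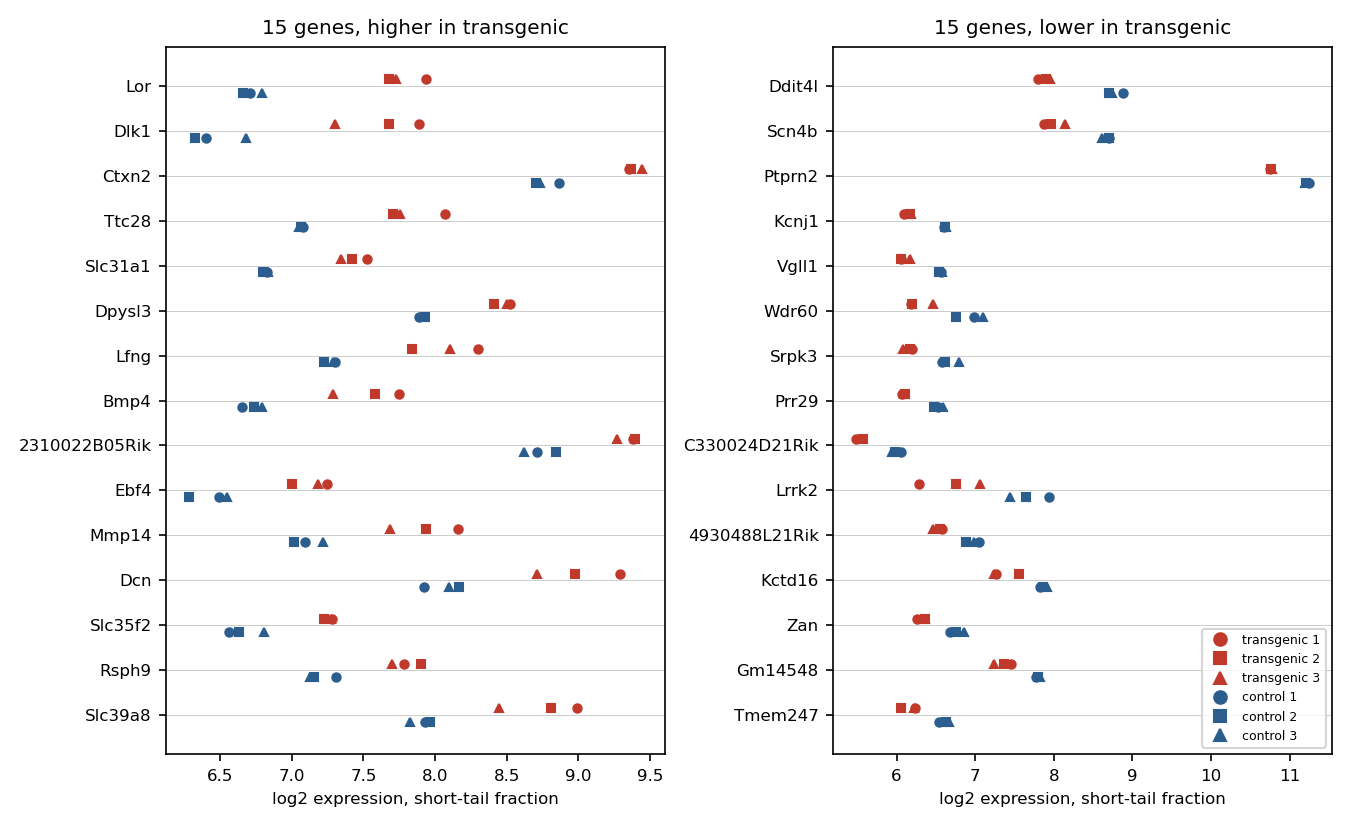
Log2 expression in the short-tail fraction of each mouse for the 15 genes with the smallest p in each direction, higher in transgenic mice on the left and lower on the right. Red symbols are the 3 transgenic mice and blue symbols the 3 control mice, with the same symbol shape for the same mouse number. No transgenic symbol reaches the control range in any of these genes, and Lrrk2 has the widest spread among the lower genes.

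Among genes lower in transgenic mice, the 15 with the smallest p had differences between -0.44 and -0.98. Ddit4l, an inhibitor of the growth-promoting kinase complex mTORC1, read 7.80, 7.90 and 7.96 in transgenic mice and 8.88, 8.70 and 8.74 in control mice. All 3 transgenic values lay below all control values. The difference was -0.89 ± 0.10 (SE, n = 3 each, limma adjusted p = 0.063), and without transgenic mouse 1 it passed (-0.85, limma adjusted p = 0.034). Its paralogue Ddit4, which has the same biochemical role, had the opposite sign. Ddit4 read 8.80, 8.18 and 8.25 in transgenic mice and 7.70, 7.43 and 7.62 in control mice, with no overlap and a difference of 0.83 ± 0.17 (limma adjusted p = 0.16).

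A sodium channel gene and a vesicle gene followed in rank. Scn4b, the beta-4 subunit of voltage-gated sodium channels and abundant in striatal medium spiny neurons, read 7.88, 7.96 and 8.14 in transgenic mice and 8.70, 8.71 and 8.62 in control mice. Ptprn2, a transmembrane protein of dense-core vesicles, read 10.75, 10.77 and 10.77 in transgenic mice and 11.25, 11.21 and 11.20 in control mice. The values within a genotype were nearly identical for Ptprn2, and neither gene overlapped. The differences were -0.68 ± 0.10 for Scn4b and -0.46 ± 0.08 for Ptprn2 (limma adjusted p = 0.15 and 0.16), and a second Ptprn2 probe set differed by -0.41.

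Lrrk2, a kinase mutated in inherited Parkinson's disease, had the largest mean difference among lower genes, -0.98 ± 0.20 (limma adjusted p = 0.16). It read 6.28, 6.76 and 7.07 in transgenic mice and 7.94, 7.65 and 7.44 in control mice, so the spread within each genotype was wider than for Ddit4l. Kctd16, an auxiliary subunit of GABA-B receptors, read 7.27, 7.55 and 7.24 in transgenic mice, against 7.82, 7.86 and 7.92 in control mice. Wdr60, a subunit of the dynein that runs in cilia, read 6.19, 6.19 and 6.47 in transgenic mice, against 6.99, 6.76 and 7.10 in control mice. Neither overlapped between the groups.

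The remaining lower genes read between 5.49 and 7.82 over the 6 mice. Kcnj1, Vgll1, Srpk3, Prr29, C330024D21Rik, 4930488L21Rik, Zan, Gm14548 and Tmem247 had differences between -0.44 and -0.51, and C330024D21Rik was above the highest nonspecific control on 0 of 3 transgenic and 2 of 3 control arrays, so its difference is not an exact value. Others of them were dim as well. On the array of transgenic mouse 3, Srpk3, Prr29 and Vgll1 read 6.08, 6.09 and 6.17, beside 6.03 for its highest nonspecific control. Differences of such dim probe sets are not exact values either. The second probe set of Srpk3 differed by -0.15. For all 15 genes the limma adjusted p lay between 0.063 and 0.16.

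The 5 largest positive differences among genes without overlap had another pattern, graded over the transgenic mice. Vim, the intermediate filament protein vimentin of glia and mesenchymal cells, read 11.41, 9.53 and 8.47 in transgenic mice and 7.87, 7.79 and 7.69 in control mice. C4b, a complement component, read 11.38, 9.81 and 8.14 in transgenic mice and 7.64, 7.80 and 7.77 in control mice. Osmr, the receptor of the cytokine oncostatin M, read 9.94, 7.70 and 6.30 in transgenic mice and 5.79, 5.84 and 6.08 in control mice. Transgenic mouse 1 was highest, transgenic mouse 2 next and transgenic mouse 3 closest to control mice in each. Cd44, a hyaluronan receptor, and Lyz2, the lysozyme of macrophages, had the same order. Cd44 read 9.73, 7.81 and 6.28 in transgenic mice and 6.00, 6.09 and 5.83 in control mice, where it exceeded the highest nonspecific control on 2 of 3 arrays. Lyz2 read 10.38, 8.89 and 7.71 in transgenic mice and 6.97, 7.14 and 7.04 in control mice.

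The mean differences of these 5 genes lay between 1.94 and 2.08, but their SE lay between 0.54 and 0.73 and the limma adjusted p between 0.20 and 0.24. A second Cd44 probe set differed by -0.22, whereas both further Vim probe sets differed by 1.98 and 2.19. The second Osmr probe set overlapped between the groups (difference 1.61). Besides Ddit4l and Lrrk2, the largest negative differences without overlap were those of Spa17 (-0.76), of Cbln2, which encodes a synaptic organiser (-0.71), and of Zmym1 (-0.70). Each of these was lowest in transgenic mouse 1, at 6.29 for Spa17, 8.62 for Cbln2 and 6.00 for Zmym1, against at least 7.12, 9.55 and 7.18 in the other 5 mice.

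Genes of the interferon list and of the reactive astrocyte and acute-phase list set transgenic mouse 1 apart from the other transgenic mice as well. Lcn2, an iron-binding acute-phase protein, read 11.10 in transgenic mouse 1 and between 5.10 and 5.43 in the other 5 mice, where it never exceeded the highest nonspecific control. Serpina3n, a protease inhibitor of reactive astrocytes, read 11.74, 9.23 and 6.76 in transgenic mice, against 6.88, 6.66 and 6.67 in control mice. Its mean difference of 2.51 ± 0.99 was the largest of all genes, yet transgenic mouse 3 lay inside the control range (limma adjusted p = 0.27). Rsad2, an antiviral enzyme induced by interferon, read 9.66 in transgenic mouse 1 and 6.68 to 7.23 in the others. Lgals3, galectin-3 of activated phagocytes, read 8.90 in transgenic mouse 1 and 5.34 to 6.08 in the others. Tgm1, a transglutaminase, and Timp1, an inhibitor of metalloproteinases, read 9.23 and 8.77 in transgenic mouse 1. The other 5 mice reached at most 6.79 for Tgm1 and 6.89 for Timp1. Without transgenic mouse 1 the Lgals3 difference was -0.039, against 1.03 with all mice.

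The same mouse stood apart in its other preparations. In total RNA Lcn2 read 10.78 in transgenic mouse 1 and 5.20 to 5.48 in the others, and 105 genes stood at least 1 log2 unit above the other 5 mice, against 0 for each other mouse. In the long-tail fraction 77 genes did so in transgenic mouse 1, 17 in transgenic mouse 3 and 27 in control mouse 1. The labels record no illness or treatment of that mouse, and the part it has in the genotype differences was examined only by leaving it out.

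**Figure D3:**
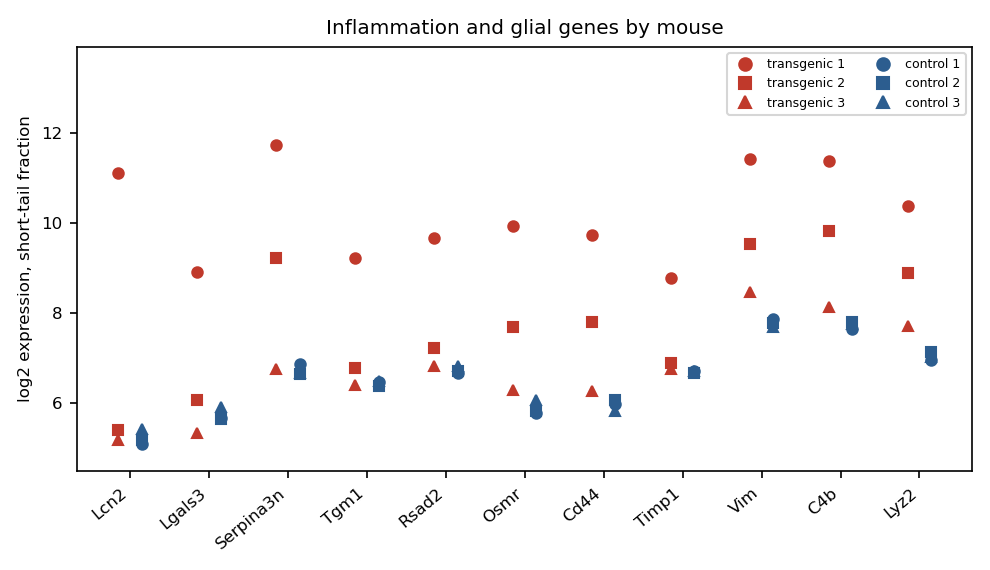
Log2 expression in the short-tail fraction of each mouse for the 8 genes of the interferon list and of the reactive astrocyte and acute-phase list in which transgenic mouse 1 exceeded the other 5 mice most, followed by the remaining genes with the largest mean difference. Red symbols are transgenic and blue symbols control mice. For Lcn2 only transgenic mouse 1 lies above 6, and for Vim, C4b and Lyz2 the 3 transgenic mice form a graded series above the control mice.

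The interferon-stimulated genes were followed up through their promoters, because transgenic mouse 1 carried their highest value in 26 of 30 genes tested. Of 49 list genes on the array these 30 passed the filter, whose mean includes the arrays of transgenic mouse 1. The count of 26 therefore depends in part on the filter. Of the list 10 were higher (33.3%) and 0 lower at an unadjusted p under 0.05, beside 11.3% and 5.40% of all genes, with a median difference of 0.46, against 0.03 over all genes tested. In each mouse the median deviation of the list from the control mean was 1.07, 0.21 and 0.08 in transgenic mice and -0.01, -0.04 and 0.03 in control mice. Without transgenic mouse 1 the median was 0.17, against 0.05 over all genes, and 8 genes were higher and 0 lower. The count of higher genes was 20 without transgenic mouse 3, 5 without control mouse 2 and 4 without control mouse 3. Ifitm2 and Ifitm3, which encode membrane proteins that block viral entry, had the smallest p of the list. Ifitm3 read 11.48, 10.28 and 9.68 in transgenic mice and 9.24, 9.16 and 9.20 in control mice, without overlap (difference 1.28 ± 0.37, limma adjusted p = 0.20). Ifitm2 read 10.40, 9.51 and 9.41 in transgenic mice and 8.80, 8.90 and 8.76 in control mice.

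Of the 30 genes, 9 stood at least 1 log2 unit higher in transgenic mouse 1 than in any other mouse, and 8 of these had a promoter sequence in RefSeq (GRCm38.p6, 250 bases before to 50 after the gene start). The core of the element bound by interferon-activated transcription factors, which is GAAA, then 2 bases of any kind, then GAAA, was searched on both strands. The core was present in a promoter of 4 of the 8 genes and of 9 of 25 tested list genes with a promoter (36%). It was present for 326 of 9645 genes tested with a promoter (3.38%) and for 1079 of 27025 genes in all (3.99%). All promoters had the same length, and a gene counted once if any of its promoters held a match. The list holds known interferon-stimulated genes, and the 8 genes were chosen from it by their values in transgenic mouse 1. The shares of both therefore follow in part from the choice and are given as a description. A match is a description of these letters and not evidence of binding. The windows of 30 bases around the 4 matches are shown because these genes carried the interferon pattern of transgenic mouse 1. They are written on the strand of the gene, and capitals mark the match, which reads TTTC, 2 bases and TTTC where it lies on the opposite strand.
Ifit3: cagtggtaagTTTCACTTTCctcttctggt
Ifitm3: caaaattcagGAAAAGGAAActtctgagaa
Rsad2: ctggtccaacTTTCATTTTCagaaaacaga
Gbp7: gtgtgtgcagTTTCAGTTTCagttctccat
The windows lie at chr19:34583363-34583392 (plus strand) for Ifit3, chr7:141010723-141010752 (minus strand) for Ifitm3, chr12:26456553-26456582 (minus strand) for Rsad2 and chr3:142530273-142530302 (plus strand) for Gbp7. The matches begin 156, 120 and 53 bases before the start in Ifit3, Rsad2 and Gbp7, and 2 bases after it in Ifitm3. Ifit3, which encodes an interferon-induced protein that restricts viral RNA, read 10.81 in transgenic mouse 1 and 8.53 to 9.08 in the others. Gbp7, a guanylate-binding GTPase, read 9.11 in transgenic mouse 1 and 7.28 to 7.80 in the others.

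Markers of cells that lie at the surface of the brain had, of the 42 lists, the largest share of genes under the unadjusted threshold. Of 27 meningeal and fibroblast genes tested, 22 were higher and 0 lower at an unadjusted p under 0.05, beside 11.3% and 5.40% of all genes. Their median difference was 0.65, and without transgenic mouse 1 it was 0.50, and 22 genes were higher there too. None passed with all mice, whereas 19 passed when transgenic mouse 3 was left out. In each mouse the median deviation from the control mean was 0.97, 0.68 and 0.30 in transgenic mice and -0.03, 0.00 and 0.03 in control mice. Summed over the 27 genes, all of which exceeded the nonspecific controls on all 6 arrays, the log2 level ran from 14.06 to 14.50 in transgenic mice and from 13.76 to 13.83 in control mice. In tissue measured as a whole, a different number of cells of a type and a different amount of RNA per cell cannot be told apart.

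Islr, a secreted protein of fibroblasts, read 8.37, 8.00 and 7.29 in transgenic mice and 6.59, 6.40 and 6.55 in control mice (difference 1.38 ± 0.24, limma adjusted p = 0.16). Igf2, a growth factor made in the leptomeninges, read 11.05, 10.91 and 10.44 in transgenic mice and 9.94, 10.06 and 9.98 in control mice. Ogn, the proteoglycan osteoglycin, read 8.01, 8.00 and 7.41 in transgenic mice and 6.93, 7.03 and 6.85 in control mice. With Dcn, these 4 genes had the smallest p of the list, none of them overlapped, and transgenic mouse 3 was nearest to control mice in all. Ptgds, which meningeal cells share with oligodendrocytes, differed by only 0.15. In total RNA the median difference of the list was 0.52 and in the long-tail fraction 0.67.

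Markers of the choroid plexus and ependyma varied more from mouse to mouse. Of 9 genes tested, 5 were higher at an unadjusted p under 0.05 (55.6%) and 0 lower, beside 11.3% and 5.40% of all genes, with a median of 0.62. The median was 0.21 without transgenic mouse 1, with 4 genes higher and 1 lower. It was 0.38 without transgenic mouse 3 and 0.24 under the 60th percentile filter. Tmem212, a gene of ciliated ependymal cells, read 7.93, 7.30 and 6.29 in transgenic mice and 5.87, 5.66 and 5.71 in control mice, where it exceeded the highest nonspecific control on 2 of 3 arrays. Mia read 8.15, 7.83 and 6.97 in transgenic mice and 6.33, 6.57 and 6.59 in control mice. Neither overlapped, with differences of 1.43 and 1.15 (limma adjusted p = 0.17 and 0.16). Ttr, the transthyretin of the choroid plexus, was added after its values were seen. It read 11.91, 8.68 and 11.52 in transgenic mice and 9.41, 10.76 and 9.58 in control mice, so the lowest value of all was in transgenic mouse 2. The part that the amount of meninges or choroid plexus in a dissection has in the other results was not tested.

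Endothelial and mural genes had smaller differences. Of 37 tested, 13 were higher (35.1%, against 11.3% of all genes) and 0 lower (5.40% of all genes) at an unadjusted p under 0.05, with a median of 0.22. Leaving out transgenic mouse 1 also gave 13 higher and 0 lower, with a median of 0.16. Cdh5, the cadherin of endothelial junctions, read 8.78, 8.73 and 8.57 in transgenic mice and 8.37, 8.33 and 8.26 in control mice, without overlap. Slc2a1, the glucose transporter of the blood-brain barrier, read 11.32, 11.14 and 11.25 in transgenic mice and 10.90, 10.84 and 10.81 in control mice. Blood cell genes had 1 higher and 1 lower of 10, near the shares over all genes, and a median of 0.00. That median was 0.25 under the 60th percentile filter, 0.07 without transgenic mouse 2 and -0.04 without transgenic mouse 1. The haemoglobin gene Hba-a1, which has a near-identical copy, differed by 0.42 (limma adjusted p = 0.20).

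Microglial and macrophage genes had a positive difference for 31 of 32 genes tested, beside 6740 of 11974 genes over all. At an unadjusted p under 0.05, 16 were higher (50%) and 0 lower, against 11.3% and 5.40% of all genes. Their median difference was 0.51, and 0.23 without transgenic mouse 1, where 15 genes were under that p. There were 24 without transgenic mouse 3 and 8 without control mouse 3. In each mouse the median deviation was 1.05, 0.40 and 0.24 in transgenic mice and 0.03, -0.02 and -0.01 in control mice. Cd68, a lysosomal protein of phagocytes, read 9.42, 8.51 and 8.12 in transgenic mice and 7.62, 7.66 and 7.73 in control mice. Fcer1g, an adaptor of Fc receptors, read 10.57, 9.66 and 9.26 in transgenic mice and 8.96, 8.71 and 8.83 in control mice. Tyrobp, the adaptor of Trem2, read 10.39, 9.96 and 9.61 in transgenic mice and 9.40, 9.14 and 9.28 in control mice. These 3 genes did not overlap and differed by 1.01, 1.00 and 0.72 (limma adjusted p from 0.19 to 0.20). The purinergic receptor gene P2ry12, a marker of resting microglia, differed by -0.06 and overlapped.

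Astrocyte genes were taken as a reactive and a homeostatic list, which were not compared with each other in a test. Of 32 genes of reactive astrocytes and the acute phase, 11 were higher at an unadjusted p under 0.05 (34.4%, beside 11.3% of all genes) and 0 lower (5.40% of all genes), and 29 had their highest value in transgenic mouse 1. Their median was 0.71 with all mice and 0.09 without that mouse, where 10 genes were higher and 2 lower. The count of higher genes was 20 without transgenic mouse 3 and between 4 and 6 without any 1 control mouse. The per-mouse median deviation was 1.61, 0.20 and 0.04 in transgenic mice and -0.02, -0.03 and 0.03 in control mice. Of 45 list genes on the array 32 passed the filter, through which genes high only in transgenic mouse 1 could enter. Gfap, the intermediate filament of astrocytes, read 12.83, 12.19 and 10.93 in transgenic mice and 10.87, 10.80 and 10.64 in control mice. Transgenic mouse 3 lay only just above the control mice in Gfap, and the difference was 1.21 ± 0.39 (limma adjusted p = 0.22). Of 31 genes of homeostatic astrocytes, 15 were higher (48.4%) and 0 lower, with a median of 0.30. The omission of transgenic mouse 1 gave 12 higher and 0 lower, with a median of 0.18. Leaving out transgenic mouse 2 gave 9 higher, and leaving out control mouse 1, 2 or 3 gave 8, 9 or 5. Apoe, a lipid carrier, read 10.63, 10.50 and 9.90 in transgenic mice and 9.52, 9.74 and 9.53 in control mice. Id4, a transcriptional regulator, read 11.07, 10.89 and 11.00 in transgenic mice and 10.57, 10.61 and 10.61 in control mice. The glutamate transporter gene Slc1a2 of the same list differed by -0.08.

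The stress-hormone and cold-responsive list held 12 higher (46.2%) and 2 lower (7.69%) of 26 genes at an unadjusted p under 0.05, beside 11.3% and 5.40% of all genes, with a median of 0.29. There were 8 higher and 2 lower without transgenic mouse 1, with a median of 0.15, and without control mouse 2 there were 6 higher. Nfkbia, an inhibitor of NF-kappaB, read 9.25, 8.80 and 8.85 in transgenic mice and 8.20, 8.03 and 8.43 in control mice. Sgk1, a kinase induced by glucocorticoids, read 11.00, 10.30 and 10.14 in transgenic mice and 9.72, 9.66 and 9.82 in control mice. Cirbp, an RNA-binding protein induced by cold, read 9.51, 8.64 and 8.42 in transgenic mice and 7.87, 7.94 and 7.90 in control mice. None of these overlapped (limma adjusted p = 0.16, 0.19 and 0.19). Ddit4l was one of the lower genes of the list and Zbtb16, a transcription factor, the other (-0.33). The MHC class I and antigen presentation list had 5 higher (29.4%) and 0 lower of 17, with a median of 0.25. This became 4 higher and a median of 0.14 without transgenic mouse 1, 9 higher without transgenic mouse 3, 2 without control mouse 2 and 3 without control mouse 1 or control mouse 3.

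**Figure D4:**
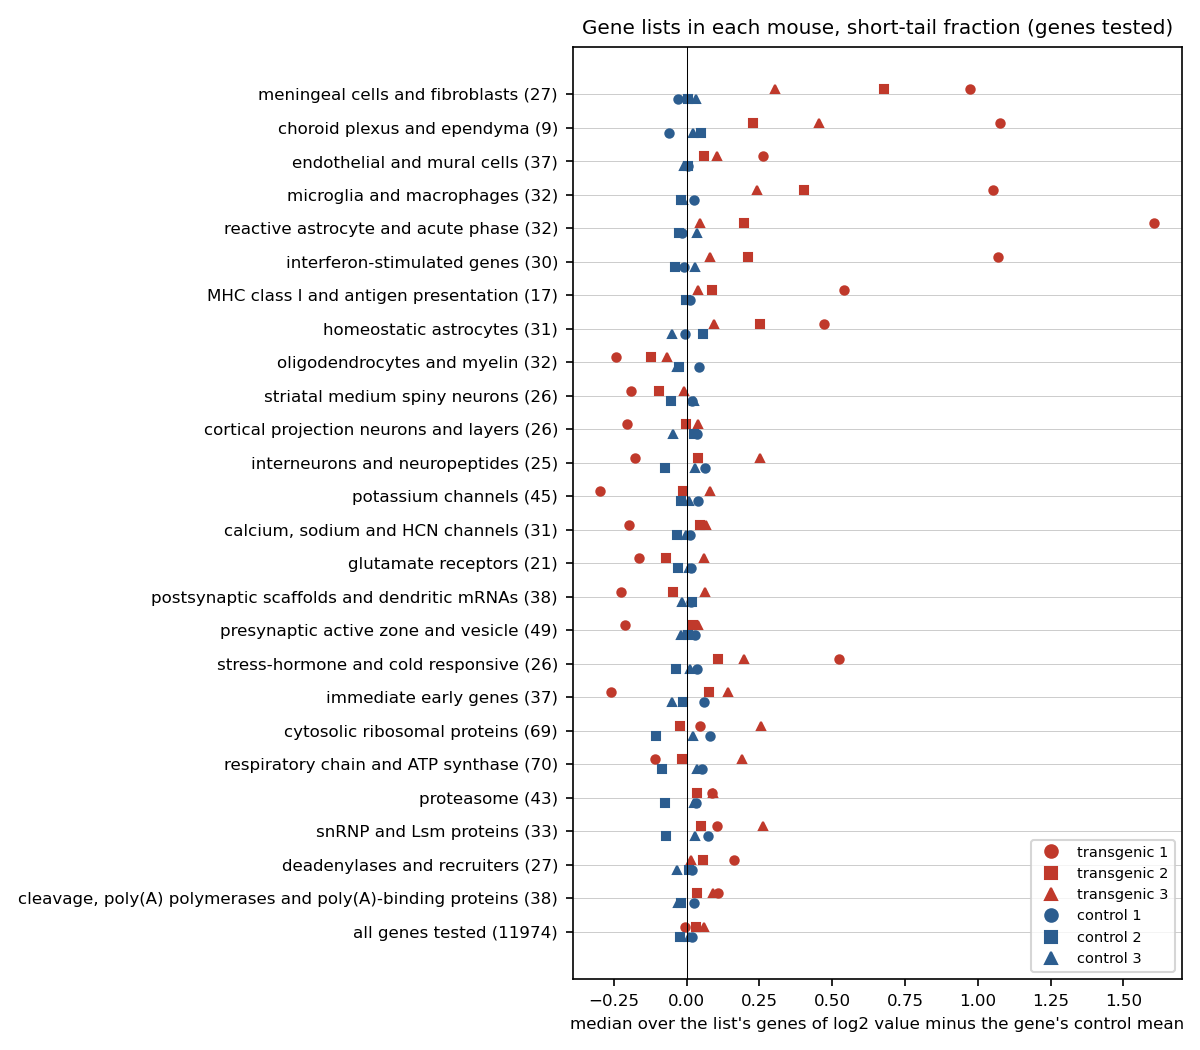
For each gene list, the median over its genes of the log2 value minus the control mean of the gene, in the short-tail fraction of each mouse. Red symbols are transgenic and blue symbols control mice, and the number of genes tested is in parentheses. Transgenic mouse 1 is furthest to the right for the reactive astrocyte list (1.61), the meningeal list has all 3 transgenic mice at 0.30 or more, and the neuronal lists have transgenic mouse 1 on the left.

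Oligodendrocyte genes had a negative median. Of 32 tested, 2 were higher (6.25%, beside 11.3% of all genes) and 9 lower (28.1%, beside 5.40% of all genes) at an unadjusted p under 0.05, with a median of -0.13. When transgenic mouse 1 was left out, 2 were higher and 6 lower, with a median of -0.09. The count of lower genes was 2 without control mouse 1 and 3 without control mouse 2. The per-mouse median deviation was -0.24, -0.12 and -0.07 in transgenic mice and 0.04, -0.03 and -0.03 in control mice. Adamts4, a matrix protease of mature oligodendrocytes, read 7.87, 8.38 and 8.30 in transgenic mice and 8.63, 8.59 and 8.67 in control mice. Gpr37, an orphan receptor of the same cells, read 8.20, 8.49 and 8.29 in transgenic mice and 8.74, 8.61 and 8.63 in control mice. Both were lower without overlap, with differences of -0.45 and -0.33 (limma adjusted p = 0.21 for each). The myelin protein gene Mbp differed by -0.15 and Mag by -0.01.

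Genes of striatal medium spiny neurons had 0 higher and 5 lower (19.2%) of 26, beside 11.3% and 5.40% of all genes, with a median of -0.11. Leaving out transgenic mouse 1 gave 0 higher and 4 lower, with a median of -0.06. There were 9 lower without transgenic mouse 3, 3 without transgenic mouse 2, and 2 without control mouse 1 or control mouse 3. Besides Scn4b these included Pde10a, a phosphodiesterase of these neurons, which read 10.55, 10.80 and 10.58 in transgenic mice and 11.03, 10.99 and 11.01 in control mice. Penk, the precursor of enkephalin, read 10.90, 10.72 and 11.02 in transgenic mice and 11.20, 11.07 and 11.23 in control mice. Drd2, the D2 dopamine receptor, read 7.17, 7.18 and 7.62 in transgenic mice and 7.87, 7.58 and 7.66 in control mice, where transgenic mouse 3 overlapped. Drd1 (-0.04), Ppp1r1b (0.02) and Bcl11b (-0.01) of the same list differed little.

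The 6 lists of ion channels, glutamate receptors, synaptic proteins and adhesion had medians of -0.08 to -0.02 with all mice. Without transgenic mouse 1 they had medians of -0.03 to 0.05, beside 0.05 over all genes. Potassium channel genes had 1 higher (2.22%) and 5 lower (11.1%) of 45, against 11.3% and 5.40% of all genes. Their median was -0.07 with all mice and 0.03 without that mouse, where 0 were higher and 5 lower. Without transgenic mouse 3 there were 10 lower, and without control mouse 3 there were 3. Kcnj9, a G protein-gated channel, read 9.23, 9.34 and 9.45 in transgenic mice and 9.75, 9.89 and 9.70 in control mice. Kcna4, a channel of A-type current, read 7.84, 8.21 and 7.97 in transgenic mice and 8.45, 8.49 and 8.54 in control mice. Both were lower without overlap (-0.44 and -0.49, limma adjusted p = 0.16 for each). Calcium, sodium and HCN channel genes had 3 higher (9.68%) and 4 lower (12.9%) of 31, and 4 higher and 1 lower without transgenic mouse 1. In that list Cacng5, an auxiliary subunit of AMPA receptors, was higher at 8.68, 8.60 and 8.34 in transgenic mice, against 7.92, 7.87 and 7.97 in control mice (0.62, limma adjusted p = 0.16).

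Synaptic lists had shares of 2.04% to 5.26% higher and 0% to 7.89% lower under the unadjusted threshold, against 11.3% and 5.40% of all genes. Postsynaptic scaffold and dendritic mRNAs had 2 higher and 3 lower of 38 (median -0.08), presynaptic genes 1 and 2 of 49 (median -0.07), glutamate receptors 1 and 0 of 21 (median -0.04) and neurexins, neuroligins and adhesion genes 1 and 1 of 31 (median -0.02). Homer1, a postsynaptic scaffold, read 9.04, 9.64 and 9.74 in transgenic mice, while no control mouse was below 9.79, and transgenic mouse 1 was lowest (difference -0.45). Gabrd, the delta subunit of GABA-A receptors, read 7.87, 8.08 and 8.46 in transgenic mice and 8.67, 8.69 and 8.83 in control mice, without overlap (-0.60 ± 0.15, limma adjusted p = 0.18). Among GABA receptor genes 1 was higher and 1 lower of 9.

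Lists of cortical neurons held genes of both signs. Layer genes had 3 higher (11.5%) and 2 lower (7.69%) of 26, near the shares over all genes, and 7 and 2 without transgenic mouse 1, and among the lower ones was Lamp5, a membrane protein of upper layers and some interneurons. It read 10.61, 11.14 and 11.31 in transgenic mice and 11.55, 11.59 and 11.60 in control mice. Interneuron and neuropeptide genes had 6 higher (24%) and 1 lower (4%) of 25, beside 11.3% and 5.40% of all genes. There were 8 and 1 without transgenic mouse 1. The median of the list was -0.01, with a positive difference for 11 genes and a negative one for 14. Without transgenic mouse 1 the median was 0.11, beside 0.05 over all genes. The lower counts of the layer and interneuron lists were 5 and 6 without transgenic mouse 3. Calb2, the calcium-binding protein calretinin, read 10.20, 10.17 and 9.96 in transgenic mice and 9.65, 9.46 and 9.60 in control mice. Tac2, a tachykinin precursor, read 8.07, 7.93 and 8.32 in transgenic mice and 7.63, 7.38 and 7.68 in control mice. None of the 3 genes overlapped (limma adjusted p = 0.20, 0.16 and 0.17). Zic2, a zinc-finger transcription factor in the list of other brain regions, read 9.74, 9.17 and 9.14 in transgenic mice and 8.57, 8.61 and 8.57 in control mice. The part that dissection boundaries have in this difference was not tested.

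Genes associated with autism, a group studied in connection with CPEB4, had 0 higher and 1 lower of 54 at an unadjusted p under 0.05, beside 11.3% and 5.40% of all genes. Their median difference was 0.03, beside 0.03 over all genes. Cacna2d3, a calcium channel subunit, was the lower one, at 9.51, 9.64 and 9.78 in transgenic mice and 9.98, 9.84 and 9.97 in control mice (-0.29, limma adjusted p = 0.24). Fmr1, the fragile X gene, read 8.51, 8.83 and 8.33 in transgenic mice and 8.76, 8.91 and 8.84 in control mice, with overlap and an unadjusted p of 0.065.

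The CPEB family itself did not differ detectably. Cpeb4 read 8.02, 8.32 and 7.79 in transgenic mice and 7.97, 8.06 and 8.11 in control mice, a difference of 0.00 ± 0.14, and a second probe set differed by -0.01. Neither probe set checks the genotype, since the sources used here do not say if the transgene contains the probed stretch. Cpeb1 differed by 0.23, Cpeb2 by 0.18 and Cpeb3 by -0.05, and all 4 overlapped (limma adjusted p of 0.33 or more). For Cpeb2 the second probe set went the other way, at -0.15. Genes of deadenylases and of their recruiters had 6 higher (22.2%) and 0 lower of 27, beside 11.3% and 5.40% of all genes, with a median of 0.11. The omission of transgenic mouse 1 gave 5 higher and a median of 0.07, beside 0.05 over all genes, and there were 3 higher without any 1 control mouse and 4 without transgenic mouse 2. Tob2, which recruits the CCR4-NOT deadenylase, read 9.47, 9.25 and 9.40 in transgenic mice and 8.87, 8.63 and 8.95 in control mice. Btg2, of the same protein family, read 7.50, 7.54 and 7.38 in transgenic mice and 6.96, 6.92 and 7.25 in control mice. Both were without overlap (0.56 and 0.43, limma adjusted p = 0.16 and 0.19). The list named for cleavage, poly(A) polymerases and poly(A)-binding proteins had 3 higher (7.89%) and 0 lower of 38. Among its higher genes were Patl1 (0.46), the exonuclease gene Xrn1 (0.32) and Pabpc1 (0.32). Of these only Pabpc1 encodes a protein of the kinds the list is named for.

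Housekeeping lists had small median differences in the short-tail fraction. Cytosolic ribosomal protein genes had 8 higher of 69, a share of 11.6% beside 11.3% of all genes, and 0 lower (5.40% of all genes). Their median was 0.06 with all mice, 0.12 without transgenic mouse 1, 0.01 without transgenic mouse 3 and 0.03 without control mouse 2. The count of higher genes was 2 without control mouse 2 and 4 without control mouse 3, and 4 were lower without transgenic mouse 3. Genes of the respiratory chain and ATP synthase had 0 and 0 of 70, with a median of 0.01, and the proteasome 7 (16.3%) and 0 of 43, with a median of 0.06 and 2 higher without control mouse 2. Of the respiratory genes 7 were lower without transgenic mouse 3. The same lists had median differences of 1.08, 1.10 and 0.96 in the long-tail fraction and of 0.20, 0.08 and 0.18 in total RNA. Rpl22, a protein of the large ribosomal subunit, read 9.44, 9.29 and 9.03 in transgenic mice and 8.72, 8.89 and 8.74 in control mice (0.47, limma adjusted p = 0.19). Psme1 and Psme2, the subunits of the interferon-inducible proteasome activator, differed by 0.42 and 0.47. The largest difference of the proteasome list, 0.77, was that of Psmb8, which stood highest in transgenic mouse 1. It read 8.90, 7.76 and 7.23 in transgenic mice and 7.31, 7.04 and 7.22 in control mice, with overlap. The long-tail array of control mouse 1 stood at least 1 log2 unit below the other 5 mice for 641 genes. Without control mouse 1 the long-tail medians of these lists were 1.06, 1.03 and 0.79.

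The contrast in total RNA and in the long-tail fraction gave 0 genes in limma as well (0% each). At an unadjusted p under 0.05 total RNA had 981 genes higher (8.19%) and 371 lower (3.10%), and the long-tail fraction 1842 higher (15.4%) and 321 lower (2.68%). The lowest limma adjusted p over all probe sets was 0.36 in total RNA and 0.28 in the long-tail fraction. With transgenic mouse 1 left out, total RNA had 747 higher and 186 lower, and the long-tail fraction 1234 and 117. In total RNA 573 genes were higher when control mouse 2 was left out, 588 when control mouse 3 was and 1380 when transgenic mouse 3 was. In the long-tail fraction the omission of control mouse 2 gave 2772 higher genes, that of control mouse 3 gave 984 and that of transgenic mouse 3 gave 841. These arrays come from the same mice and are not an independent repeat. Lor differed by 0.86 ± 0.17 in total RNA and by 1.17 ± 0.27 in the long-tail fraction. Ddit4l differed by -0.80 ± 0.14 in total RNA, and in the long-tail fraction it overlapped, at 7.23, 7.81 and 7.61 in transgenic mice and 6.86, 8.43 and 7.63 in control mice.

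**Figure D5:**
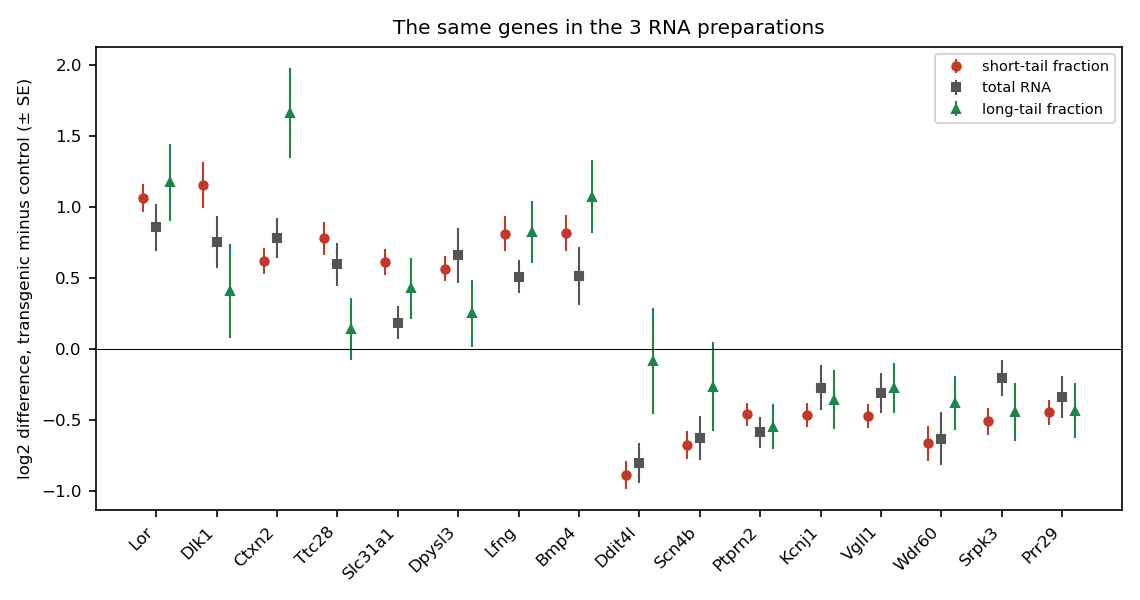
Log2 difference, transgenic minus control, with its SE (n = 3 mice each), for 8 genes higher and 8 genes lower in the short-tail fraction. Red circles are the short-tail fraction, grey squares total RNA and green triangles the long-tail fraction, all from the same mice. In total RNA Slc31a1 (0.18) and Srpk3 (-0.20) lie nearest to 0, and the long-tail differences of Ctxn2 (1.66) and Ddit4l (-0.09) lie furthest from their short-tail values.

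Whether a gene differed more in the short-tail fraction than in total RNA was tested within each mouse. In limma 0 of 11974 genes passed (0%), with a lowest adjusted p of 0.86. Without adjustment, 336 genes were higher at a p under 0.05 (2.81%) and 253 lower (2.11%). These were 299 and 203 without transgenic mouse 1, 205 and 260 without control mouse 2, 247 and 155 without control mouse 3, and 424 and 474 without transgenic mouse 3. With all mice both directions together held 589 of 11974 genes, about the share that this threshold gives when no gene differs. The genes below were chosen by their p in this comparison, so a separation in only 1 preparation follows in part from that choice. The smallest p belonged to Duxbl1, a homeobox gene, whose short-tail difference of 1.05 stood beside 0.16 in total RNA (0.89 ± 0.14 between them). It read 7.59, 7.20 and 6.71 in the short-tail fraction of transgenic mice and 6.02, 6.03 and 6.29 in that of control mice. In total RNA it read 6.22, 6.35 and 5.55 in transgenic mice and 5.80, 5.90 and 5.94 in control mice. The genotypes thus separated in the short-tail fraction and overlapped in total RNA. In total RNA the control values and that of transgenic mouse 3 lay below 5.95, the level of the filter on dim probe sets. A difference there could be missed. Anxa4 (0.94), Stat5a (0.72), Nt5dc2 (0.80), Mia (0.74), Rfx2 (0.67), Fstl4 (0.50) and Pars2 (0.48) followed. In Pars2, a mitochondrial prolyl-tRNA synthetase, the short-tail values were 7.97, 8.13 and 7.96 in transgenic mice and 7.59, 7.56 and 7.61 in control mice. Its total RNA values were 7.52, 7.58 and 7.55 in transgenic mice and 7.57, 7.58 and 7.66 in control mice, so this gene too separated in the fraction and overlapped in total RNA.

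In the opposite direction Gadd45a, a stress-induced growth arrest gene, had the smallest p (-0.79 ± 0.15, limma adjusted p = 0.86). It read 7.43, 6.72 and 6.99 in the short-tail fraction of transgenic mice and 7.53, 7.30 and 7.10 in that of control mice. In total RNA it read 7.22, 6.91 and 6.96 in transgenic mice and 6.61, 6.75 and 6.16 in control mice. The genotypes overlapped in the short-tail fraction and not in total RNA. Adck2 (-0.52), Cirbp (-0.56), Pde1c (-0.54), Hsdl1 (-0.55), 1700094D03Rik (-0.49), Ikbkg (-0.57) and Zdhhc6 (-0.50) had the next smallest p. For Cirbp the short-tail difference of 0.95 was below that of 1.51 in total RNA.

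The short-tail minus long-tail difference within each mouse also gave 0 genes in limma (0%, lowest adjusted p = 0.37), with 389 higher (3.25%) and 1304 lower (10.9%) at an unadjusted p under 0.05. The long-tail array of control mouse 1, which lay below the other mice for 641 genes, enters these differences, and without control mouse 1 there were 210 higher and 934 lower. The count of lower genes was 2463 without control mouse 2, 711 without transgenic mouse 1, 817 without transgenic mouse 2, 537 without control mouse 3 and 378 without transgenic mouse 3, and higher genes ran from 127 (without transgenic mouse 2) to 958 (without control mouse 2). The lowest p among genes lower in transgenic mice included Ndufb7 (-1.17), Rpl31 (-1.33), Mrpl13 (-1.18), Nhp2 (-1.37), Tyrobp (-1.44), Rps15 (-1.26) and Mrpl52 (-1.39). Rpl31-ps12 (-1.60), a pseudogene, cannot be separated from Rpl31 on sequence grounds here. In Rpl31 the short-tail values were 11.02, 11.87 and 12.35 in transgenic mice and 11.97, 11.83 and 11.98 in control mice. Its long-tail values were 10.73, 10.96 and 11.46 in transgenic mice and 9.88, 10.09 and 9.72 in control mice, so the genotypes separated in the long-tail and not in the short-tail fraction. Among genes higher in transgenic mice were Mia (1.22), Tmem212 (1.14), Gpr173 (0.93), Kcnq3 (0.90), Cdr1os (0.89), the opioid receptor gene Oprm1 (0.80), Rbms2 (0.77) and A2m (0.76). Kcnq3, a subunit of the M-current channel, overlapped between genotypes in the short-tail fraction and read 8.52, 9.07 and 8.87 in the long-tail fraction of transgenic mice, against 9.97, 9.37 and 10.09 in that of control mice. These genes were likewise chosen by their p in this comparison.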

How the data were processed

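The deposited values are log2 expression from RMA, per the submitters' processing notes, which give no version and do not say how many arrays were run together. Of 45141 probe sets 104 controls were left out, and probe sets with a mean over all 18 arrays at or below the 40th percentile (5.95) were dropped. This left 27022, of which 19143 mapped to 1 gene, 411 to several and 7468 had no entry in the probe annotation. Probe sets lacking a single symbol stayed in the tests without being named. The series text names another array design than the probe annotation, which was used. Each of 11974 genes was taken from its brightest probe set. Genotypes were compared in linear models (R 4.3.3, package limma 3.58.1; statmod 1.5.0 for blocks), with Benjamini-Hochberg adjustment over the 27022, two-sided, and single values with exact permutation tests. The script was tested on simulated data.

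The text names the 15 genes with the smallest p and the 5 largest non-overlapping differences in each direction, up to 4 per list, Cpeb1 to Cpeb4, 8 per direction for each within-mouse difference and the 8 genes of the interferon list and of the reactive astrocyte and acute-phase list in which transgenic mouse 1 exceeded the other mice most. Others named were chosen after their values were seen. The members and the 42 gene lists were chosen with earlier results of these data known. The labels do not say whether mice shared a litter. Deviations of equally numbered mice correlated at -0.07, 0.17 and 0.16, and those of unequally numbered mice at -0.28 to 0.14. These values do not decide whether the numbers are pairs. The labels give no pairing, so the numbers were not taken as pairs. An array carries no depth in reads, so precision depends on how many mice were used. Alternatives covered the filter, scaling, weights, probe set summary, replicate block and each mouse left out.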

Additional observations from a re-analysis of the deposited data

How the results depend on the processing

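The count of 0 probe sets passing in the short-tail fraction was 1 under the 60th percentile filter, quantile normalization again, centring of arrays and averaging the probe sets of each gene. Single mice left out gave 0 to 275 (4 without transgenic mouse 1, 275 without transgenic mouse 3). Array weights gave 778, with weights of 0.31, 2.14 and 0.46 for transgenic and 2.12, 1.43 and 1.07 for control mice, in a weight fit that stopped before convergence in 2 of the fits. With the replicate block 0 passed (lowest limma adjusted p = 0.18), and no pairing of mice by number is given by the labels. Array weights gave 2735 in total RNA, 9175 in the long-tail fraction and 4498 for the short-tail minus long-tail difference. Without control mouse 2 the long-tail fraction gave 1811 and the short-tail minus long-tail difference 1925, where single mice left out ranged from 0 to these counts. The other alternatives gave 0. The sign turned for Cpeb3 with array weights (0.032) and without transgenic mouse 1, single mice left out giving -0.12 to 0.025. It turned for Cpeb4 with quantile normalization again (-0.073), with averaged probe sets (-0.0026) and without transgenic mouse 2 or control mouse 1 (-0.14 to 0.13). Lgals3 ran from -0.039 without transgenic mouse 1 to 1.75. The blood cell median of 0.00 was 0.25 under the 60th percentile filter, and 0.07 without transgenic mouse 2 or control mouse 3. The CPEB family median of 0.09 was 0.00 under that filter, 0.01 with averaged probe sets and -0.04 without transgenic mouse 2, and the median of the cleavage and poly(A) list (0.07) was 0.01 with quantile normalization again and 0.11 without transgenic mouse 2. The causes were not tested. Signals near the nonspecific controls limit dim genes.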
